A study of Mus musculus with 18 samples.

Results

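The mRNA of 10 secreted activators of the Wnt pathway was followed across 18 libraries of mouse colon and colon tumour organoids. The genes were the Wnt ligands Wnt2, Wnt2b, Wnt3, Wnt4, Wnt5a, Wnt6, Wnt9a and Wnt10a and the R-spondins Rspo1 and Rspo3, found by symbol among the 36757 genes of the count table, and all 10 were present. A further 12 Wnt and R-spondin genes of the table were kept as a separate list. Wnt3a was not analysed here.

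Wnt ligands are lipid-modified glycoproteins. Porcn attaches the lipid and Wls carries the ligand out of the cell, where it binds Frizzled receptors together with the co-receptors Lrp5 and Lrp6, so that beta-catenin is stabilised and Tcf/Lef factors switch on target genes such as Axin2. R-spondins act one step further along the membrane: they bind Lgr4, Lgr5 and Lgr6 and remove Rnf43 and Znrf3, the ubiquitin ligases that clear Frizzled from the cell surface. In the colon many of these factors come from stromal cells around the crypt base, and stem cells depend on them.

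All mice were C57BL/6, entered the protocols at 6 to 8 weeks of age, and were RNF138fl/fl (wild type) or RNF138-/-, lacking the ubiquitin ligase RNF138 by label. Both sexes were used, and how the RNF138-/- allele was made is not given in the sources used here. For chronic colitis they drank 2% dextran sodium sulfate (DSS) for 7 days and water for 14 days, with 2 further cycles, and were killed 4 weeks after the last DSS. For colitis-associated cancer (CAC) an intraperitoneal dose of 10 mg/kg azoxymethane (AOM), a colon carcinogen, came 4 days before the same DSS cycles. Organoids were grown in Matrigel from cells of CAC tumours, in a medium for which the study's methods list EGF and supplements and no Wnt or R-spondin. Each of the 6 groups had 3 libraries, all from animals that had received DSS, and untreated colon was not analysed here. The labels do not say which animals the organoids came from, or whether the replicates of a culture were separate mice.

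Several features of the libraries bear on the results. Total counts ran from 11514716 to 24390082 per library. Rnf138, the targeted gene, was not lower in the libraries labelled RNF138-/-: its log2 fold change was -0.06 ± 0.22 (SE) in colitis, 0.72 ± 0.14 in CAC and -0.10 ± 0.16 in organoids (adjusted p = 0.963, 0.0426 and 0.668). Counts summed over a whole gene do not tell if part of it was deleted. RNF138-/- below is therefore the label of a library. Replicate 3 of the wild-type CAC group stood apart from the other 2, with 345 CPM summed over 19 Wnt target genes against 1518 and 1788 in its group and 516 to 638 in wild-type colitis. In comparisons with wild-type CAC, values without that library are given beside the counts of members and beside some of the list counts and leading genes. The RNF138-/- CAC libraries held 123 to 253 CPM of 8 smooth muscle markers, against 2657 to 8620 in wild-type CAC. All 8 were called lower, where 5.37% of all genes were called. All 9 intestinal epithelium markers were present in every group, summing to 5490 to 16034 CPM. Organoid libraries carried 9074 to 50209 CPM of 8 fibroblast markers, against 956 to 1838 in the 12 tissue libraries. In the wild-type organoids 4 Y-linked genes had 0 counts in all 3 libraries, and in the RNF138-/- organoids they summed to 241 to 280 CPM, so that in organoids genotype and sex cannot be told apart. All 12 tissue libraries held Y-linked counts, so that model and sex cannot be told apart between wild-type organoids and wild-type CAC either.

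Levels are given as CPM, the count of a gene as a share of its library on a fixed scale, with trimmed mean (TMM) factors. A gene was called when its adjusted p was under 0.05 in edgeR's quasi-likelihood test, over all genes tested, and its fold was at least 2. Fold changes are log2 values ± SE from those fits, and with 3 libraries against 3 an exact permutation test cannot go below 0.1. In bulk RNA, more cells of a type and more RNA per cell cannot be told apart.

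Between genes, levels were compared as CPM per kilobase of merged exons. In colitis the leading members were the stromal ligand Wnt2b, at 3.95 ± 0.874 (SD, n = 3) CPM per kb in wild-type and 4.5 ± 2.82 in RNF138-/- tissue, together with Rspo1, Wnt5a and Rspo3, all between 2.08 and 4.95. Wnt10a and Wnt3 were the lowest in wild-type colitis, at 0.0784 and 0.0745. In CAC of both genotypes the order began with Wnt6, Wnt10a and Wnt5a, with Wnt6 at 11.1 ± 9.11 in wild-type and 20.3 ± 4.02 in RNF138-/- tissue. In organoids Wnt6 and Wnt10a again came first. Wnt6 reached 181 ± 51.3 CPM per kb in wild-type organoids and 52 ± 9.22 in RNF138-/- organoids, and Wnt10a 60.3 ± 16.4 and 19.9 ± 3.79.

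**Figure D1:**
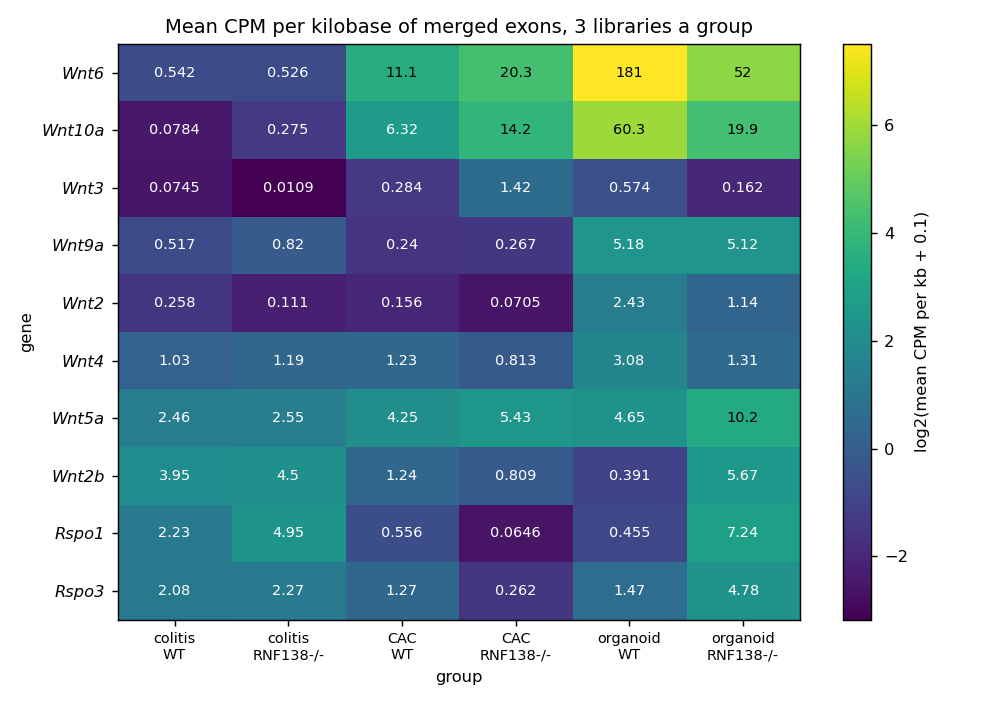
Mean level of each gene in each group, in CPM per kilobase of merged exons (number in each cell, 3 libraries a group), with colour on a log2 scale after adding 0.1. Wnt6 and Wnt10a are the brightest rows in CAC and organoids, while Wnt2b, Rspo1, Wnt5a and Rspo3 lead in colitis.

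Wnt6 and Wnt10a, ligands known from skin, tooth and kidney development, are neighbours in the genome. In GRCm38 (the mm10 build) Wnt6 lies at chr1:74771892-74785322 and Wnt10a at chr1:74791516-74804179, both on the plus strand, with 6193 bases and no annotated gene between them. The other protein-coding genes of the set lie apart from each other: Wnt2 at chr6:17988940-18030585, Wnt2b at chr3:104945272-104961921 and Rspo3 at chr10:29452416-29535867 on the minus strand, and Wnt3 at chr11:103774150-103817957, Wnt9a at chr11:59306928-59333552, Wnt4 at chr4:137277489-137299726, Rspo1 at chr4:124986430-125009099 and Wnt5a at chr14:28504750-28527448 on the plus strand. Among the 12 tissue libraries, Wnt6 was the gene whose centred log2(CPM + 1) profile was closest to that of Wnt10a of 1363 genes of like spread (root mean square difference 0.33), with Muc6 almost as close (0.34). From the side of Wnt6 the nearest 2 of 1496 genes were Psapl1 (0.23) and Prss56 (0.26).

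The bases upstream of 3 members are shown. Wnt6 is the member with the highest mean CPM per kb in CAC and organoids. Rspo1 is the member whose genotype difference moved most between CAC and organoids, and Wnt3 the member whose window held the core of a Tcf/Lef site. The stretches are RefSeq promoter windows of GRCm38.p6 on the plus strand, read 5′ to 3′ and ending before the first annotated transcribed base, at chr1:74771642-74771891 (Wnt6), chr4:124986180-124986429 (Rspo1) and chr11:103773925-103774149 (Wnt3), and capitals mark the core CTTTG, searched on both strands.
Wnt6: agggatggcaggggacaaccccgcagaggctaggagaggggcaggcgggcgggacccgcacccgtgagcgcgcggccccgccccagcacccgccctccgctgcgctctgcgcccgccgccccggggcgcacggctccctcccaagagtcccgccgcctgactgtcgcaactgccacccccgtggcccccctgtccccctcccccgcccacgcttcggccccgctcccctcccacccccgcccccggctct
Rspo1: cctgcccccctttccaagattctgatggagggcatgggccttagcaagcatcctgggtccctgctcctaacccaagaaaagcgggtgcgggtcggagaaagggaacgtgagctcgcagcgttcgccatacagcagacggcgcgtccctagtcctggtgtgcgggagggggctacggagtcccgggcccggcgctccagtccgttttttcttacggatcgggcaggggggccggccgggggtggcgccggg
Wnt3: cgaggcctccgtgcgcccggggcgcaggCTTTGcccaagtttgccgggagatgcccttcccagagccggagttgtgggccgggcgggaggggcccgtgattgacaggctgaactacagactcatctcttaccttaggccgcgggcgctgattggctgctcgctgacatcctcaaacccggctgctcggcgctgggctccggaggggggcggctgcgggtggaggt

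The promoter table has no entry for Wnt5a, Wnt10a and Rspo3. Of the 7 members with one, 1 held CTTTG in the 250 bases before the RefSeq start, against 48.6% of 32851 RefSeq windows of the same length. The GENCODE gene begins earlier than the RefSeq start in Wnt2, Wnt2b, Wnt3, Wnt4 and Wnt9a, so that the windows searched in these genes reach into it. The windows were rich in G and C, at 79.6% for Wnt6, 66.8% for Rspo1 and 68.9% for the part of the Wnt3 window shown. A match of these letters is a description and not a site of binding, and a window without it says nothing about Tcf/Lef factors.

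Wnt6 was near its floor in colitis and high in CAC tissue except for wild-type replicate 3. It measured 1.25, 1.31 and 1 CPM in the 3 wild-type colitis libraries and 1.86, 0.846 and 0.757 CPM in the RNF138-/- ones. In CAC it measured 36.7, 34.7 and 1.2 CPM in wild-type and 40.2, 38.8 and 54.7 CPM in RNF138-/- tissue. All CAC libraries lay above all colitis libraries except wild-type replicate 3, whose 1.2 CPM fell inside the colitis range.

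Wnt10a showed the same layout. It measured 0.114, 0.341 and 0.125 CPM in wild-type colitis and 1.26, 0.725 and 0.0504 CPM in RNF138-/- colitis. Wild-type CAC gave 21.9, 24.2 and 0.647 CPM, and RNF138-/- CAC 18.6, 36.3 and 50.3 CPM. Again wild-type CAC replicate 3 was at the level of colitis.

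In both genotypes CAC tissue was compared with colitis tissue in a fit of all 18 libraries. In wild-type tissue 4 of the 10 members were called, where 13.6% of 19390 genes were. Wnt6 was higher by 4.35 ± 0.75 (adjusted p = 9.17e-04) and Wnt10a by 6.28 ± 1.05 (7.25e-04), while Wnt2b changed by -1.64 ± 0.43 (0.0151) and Rspo1 by -2.02 ± 0.64 (0.0354). Without wild-type CAC replicate 3 the count was again 4, with Wnt6 at 4.90 and Wnt10a at 6.83. Without wild-type colitis replicate 1 or CAC replicate 1 neither Wnt2b nor Rspo1 passed and the count was 2. Rspo1 also missed the threshold without replicate 2 of either group, with log2 fold changes of -1.73 to -1.96 and adjusted p of 0.087 to 0.122 over these 4 libraries.

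In RNF138-/- tissue 8 of the 10 were called, 4 in each direction, where 37.1% of all genes were. Higher were Wnt6 (5.28 ± 0.77), Wnt10a (5.73 ± 0.91), Wnt5a (1.09 ± 0.27) and Wnt3. Lower were both R-spondins, Rspo1 (-6.20 ± 0.80) and Rspo3 (-3.09 ± 0.39), together with Wnt2b (-2.47 ± 0.45) and Wnt9a (-1.59 ± 0.36). Adjusted p ranged from 1.61e-05 for Rspo3 to 0.00289 for Wnt5a. Wnt2 and Wnt4 were not called, at -0.66 ± 0.63 and -0.54 ± 0.35. The median log2 fold change of the 10 was -0.60, and of all genes 0.04.

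Markers of other cells are set beside this contrast, in which 37.1% of all genes were called in RNF138-/- tissue. There all 8 smooth muscle markers, all 5 B and plasma cell markers and 7 of 8 neuron and glia markers were called lower in CAC than in colitis, and of 9 tested squamous epithelium markers 7 were called higher and 1 lower. Mesothelium (4 of 5), fat (4 of 4 tested), lymphatic endothelium (4 of 6, with 1 higher), intestinal epithelium (4 of 9), skeletal muscle (3 of 4 tested), fibroblast (2 of 8) and trophocyte markers (2 of 5) were also called lower, and 3 of 5 telocyte markers higher. Of 6 myeloid markers 2 were called higher and 1 lower, and of 5 T cell markers 1 higher and 2 lower. Of 6 blood endothelium markers 1 was called lower. The squamous markers summed to 45 to 157 CPM in RNF138-/- CAC, to 59.6, 108 and 8.32 in wild-type CAC and to 3.58 to 15.3 in colitis, with Krtdap at 0 in all CAC libraries and Krt6a in wild-type colitis. In wild-type tissue 6 of 9 squamous markers were called higher and 0 of 8 smooth muscle markers lower by edgeR (0 at an unadjusted p under 0.05, 0 by DESeq2, 1 by edgeR without wild-type CAC replicate 3). In the other lists of wild-type tissue, where 13.6% of all genes were called, 2 of 4 fat markers and 1 each of the telocyte, B and plasma cell and lymphatic endothelium markers were called higher, and 2 lymphatic endothelium markers and 1 each of the trophocyte, mesothelium, neuron and glia, myeloid and intestinal epithelium markers lower. Without wild-type CAC replicate 3 these counts moved. Called higher were then 3 fat, 3 telocyte, 1 B and plasma cell and 1 lymphatic endothelium markers. Called lower were 3 mesothelium, 3 neuron and glia, 2 intestinal epithelium, 1 trophocyte, 1 myeloid and 0 lymphatic endothelium markers. The part of these cells in the differences of the ligands was not tested.

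Wnt3, the ligand that Paneth cells of the small intestine supply to stem cells, was scarce. Its counts were 0, 0 and 2 in RNF138-/- colitis and 73, 172 and 50 in RNF138-/- CAC. Over the summed counts, 295 against 2, the ratio after scaling was 119 (95% interval 32.6 to 986, counting error only), and the adjusted p was 7.90e-05. Wild-type CAC lay between them, at 0.812, 1.44 and 0.37 CPM against 3.88, 6.96 and 2.24 CPM in RNF138-/- CAC.

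Wnt5a, which signals largely without beta-catenin through receptors such as Ror2, was present in every library. It ran from 16.5 to 24.3 CPM over the 6 colitis libraries and from 22.8 to 51.4 CPM over the 6 CAC libraries. In wild-type tissue its difference, 0.80 ± 0.27, had an adjusted p of 0.0453 and did not reach a fold of 2. In RNF138-/- tissue it passed, but leaving out colitis replicate 2 or 3 or CAC replicate 2 took the difference just under a fold of 2 (0.92 to 0.97).

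**Figure D2:**
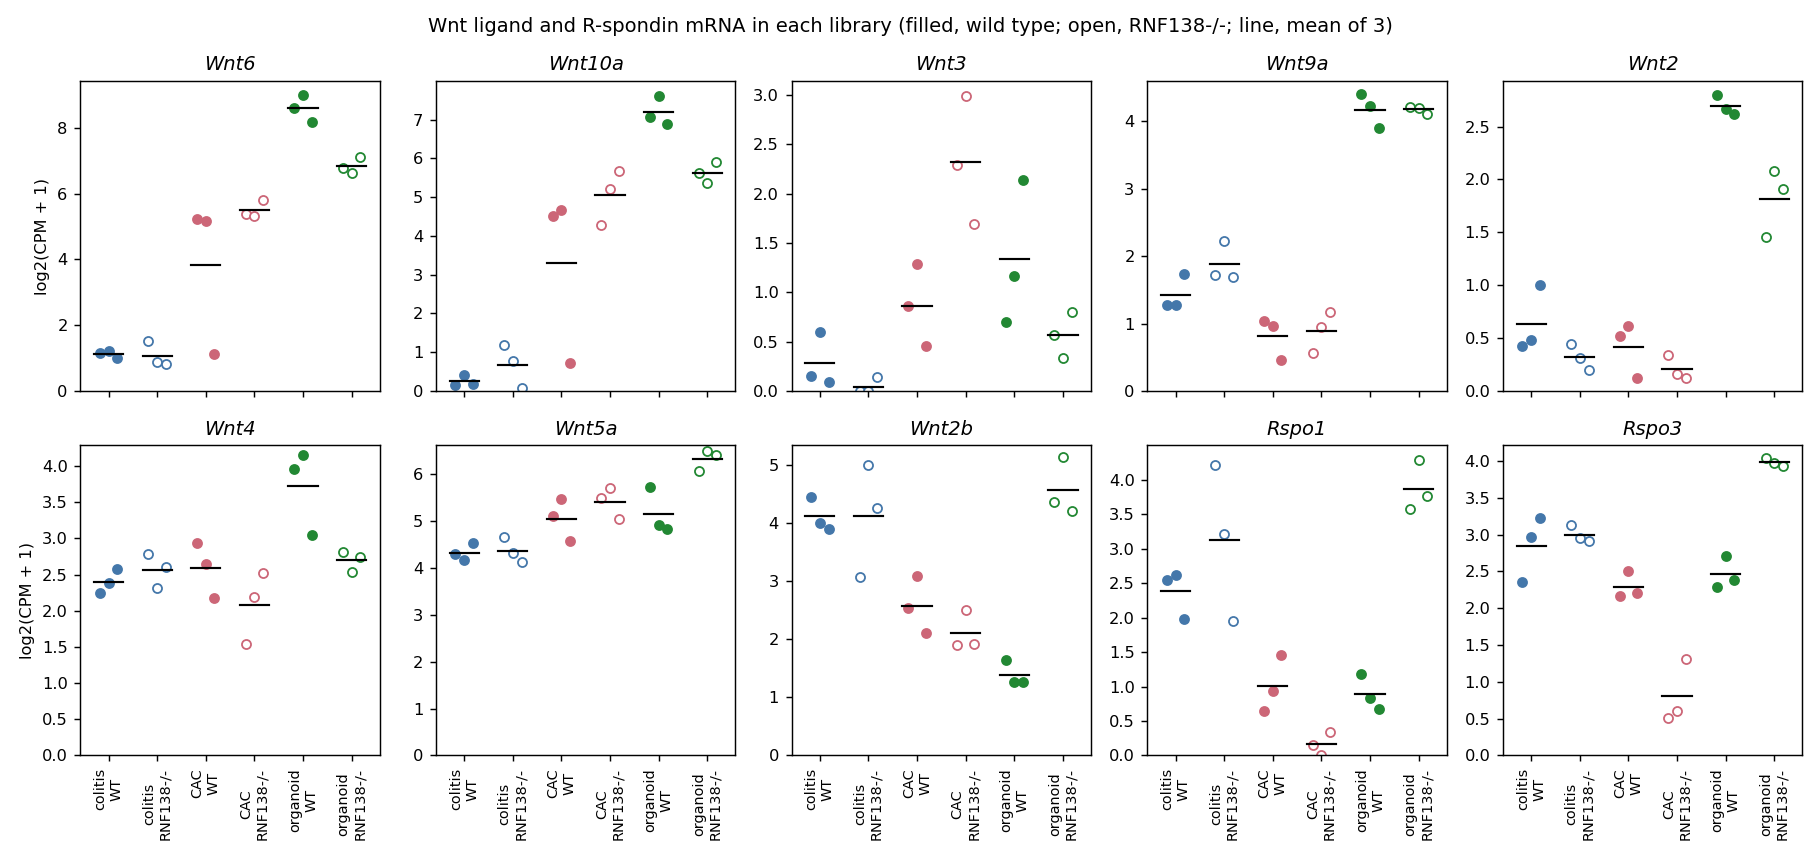
Level of each of the 10 genes in every library, as log2(CPM + 1), with groups along the horizontal axis, filled points for wild type, open points for RNF138-/- and a line at the mean of the 3 log2 values. Wnt6 and Wnt10a are low in colitis, higher in CAC except for wild-type replicate 3, and highest in wild-type organoids. By their means Wnt2b, Rspo1 and Rspo3 are low in CAC and highest in RNF138-/- organoids, where Wnt2b and Rspo1 overlap with colitis.

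Both R-spondins were called lower in CAC than in colitis in RNF138-/- tissue, and in wild-type tissue Rspo1 was and Rspo3 was not (-0.69 ± 0.35, adjusted p = 0.178, overlapping groups). Rspo3, the main R-spondin of the colonic stroma, measured 4.1, 6.81 and 8.34 CPM in wild-type and 7.79, 6.77 and 6.51 CPM in RNF138-/- colitis. It was 3.5, 4.66 and 3.61 CPM in wild-type CAC and 0.425, 0.526 and 1.48 CPM in RNF138-/- CAC. The CAC genotypes did not overlap, and wild-type replicate 3 was not the exception here.

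Rspo1 measured 4.85, 5.17 and 2.95 CPM in wild-type and 17.6, 8.28 and 2.88 CPM in RNF138-/- colitis. In CAC it fell to counts of 9, 19 and 19 in wild-type libraries and of 2, 0 and 6 in RNF138-/- libraries. Wnt2b had a like course, from 13.9 to 20.8 CPM in wild-type colitis to 3.33 to 7.53 CPM in wild-type CAC and, in RNF138-/- tissue, from 7.43 to 31.1 CPM in colitis to 2.76 to 4.65 CPM in CAC. The tissue genes nearest in profile were Sdc2 (0.26) and B3galnt1 (0.27) for Rspo3, Nat14 and Hlx (both 0.24) for Rspo1 and Clec10a (0.37) and B3gnt9 (0.41) for Wnt2b.

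Genotypes were compared within each model. In colitis 0 of the 7 members tested were called by edgeR, 0 had an unadjusted p under 0.05 and DESeq2 called 0, where 0.0902% of 16623 genes were called. The largest difference was that of Rspo1, 1.16 ± 0.57 (adjusted p = 0.547), with overlapping groups. Wnt2, Wnt3 and Wnt10a were too low to test. Wnt3 had counts of 2, 9 and 1 in wild-type colitis and of 0, 0 and 2 in RNF138-/- colitis, so that most of its wild-type counts came from replicate 2.

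In CAC 1 of the 9 members tested was called, where 5.37% of 17752 genes were. Rspo3 was lower in RNF138-/- tissue, with a log2 fold change of -2.30 ± 0.51 (adjusted p = 0.0491), and all 3 RNF138-/- libraries lay below any wild-type library. The call was close to the threshold: leaving out any of the 3 wild-type libraries, or RNF138-/- replicate 1 or 2, ended it, with differences of -2.01 to -2.40 and adjusted p between 0.0556 and 0.174. It was also lost with the replicate block (-2.48, 0.0547) and with a Y-linked covariate (-3.02, 0.228). Rspo1 had a larger difference, -3.08 ± 0.89 (adjusted p = 0.0751), on few counts. Wnt3 was at 2.23 ± 0.59 (0.0641), also without overlap between the groups. DESeq2 called all 3 of these genes, Rspo1 and Wnt3 with adjusted p of 0.017 and 0.00391.

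Wnt6 and Wnt10a did not pass in CAC, at 0.86 ± 0.90 and 1.14 ± 0.96 (adjusted p = 0.519 and 0.42). Much of their spread came from wild-type replicate 3. Without it the differences were 0.32 and 0.61, with adjusted p of 0.29 and 0.348. Wnt2b (-0.66 ± 0.37), Wnt4 (-0.63 ± 0.40), Wnt5a (0.32 ± 0.27) and Wnt9a (0.09 ± 0.49) also missed the threshold, and Wnt2 was too low to test.

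The single call in CAC lay beside large differences in cell markers, where 5.37% of all genes were called. The 8 smooth muscle markers had a median log2 fold change of -4.79 in the same comparison and the 5 B and plasma cell markers, all called lower, one of -3.60. Also called lower were 3 of 7 neuron and glia markers tested (median -3.23), 3 of 3 fat markers tested (-4.05), 2 of 9 intestinal epithelium, 1 of 5 trophocyte, 1 of 3 mesothelium and 1 of 3 skeletal muscle markers. Of the 8 fibroblast markers 1 was called lower, and their sums overlapped, at 1152 to 1838 CPM in wild-type and 956 to 1764 CPM in RNF138-/- CAC. The part of muscle and other stroma in the difference of Rspo3 was not tested.

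**Figure D3:**
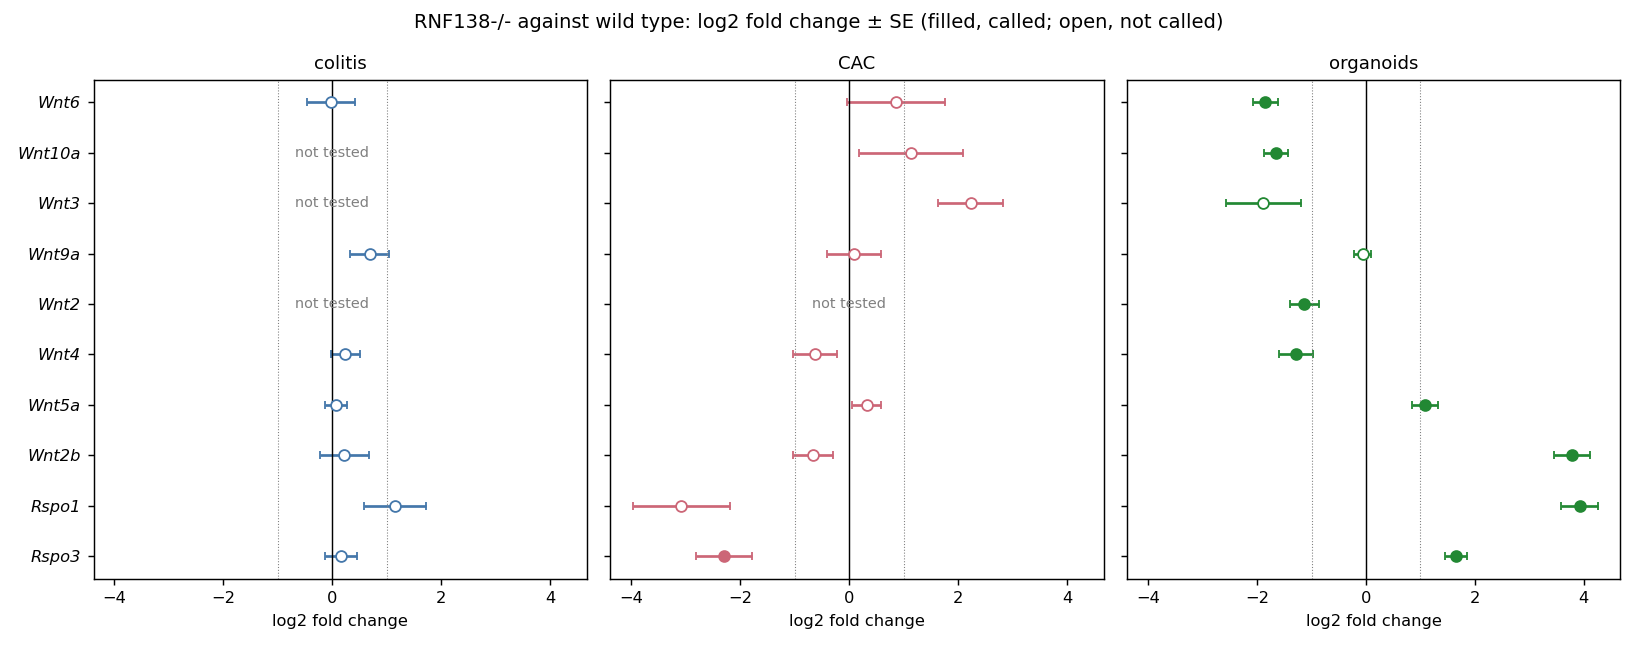
RNF138-/- against wild-type log2 fold change ± SE of each gene in colitis, CAC and organoids, from a separate fit for each model, with filled points for called genes and dotted lines at a fold of 2. No point is filled in colitis, 1 (Rspo3) in CAC and 8 in organoids, where Rspo1 and Wnt2b sit near 3.92 and 3.79 and Wnt6 at -1.85.

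In organoids 8 of the 10 members were called, 4 in each direction, where 15.0% of 15294 genes were. Higher in the RNF138-/- organoids were Rspo1, Rspo3, Wnt2b and Wnt5a, and lower were Wnt6, Wnt10a, Wnt4 and Wnt2. Their median log2 fold change was -0.60, against -0.04 over all genes.

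Rspo1 measured 1.26, 0.784 and 0.602 CPM in wild-type organoids and 10.9, 18.5 and 12.6 CPM in RNF138-/- organoids, a log2 fold change of 3.92 ± 0.34 (adjusted p = 6.78e-04). Wnt2b measured 2.12, 1.41 and 1.4 CPM against 19.6, 34.4 and 17.5 CPM, a change of 3.79 ± 0.33 (6.78e-04). Rspo3 measured 3.89, 5.56 and 4.21 CPM against 15.4, 14.7 and 14.3 CPM, a change of 1.65 ± 0.20 (0.00161). In each of these genes every RNF138-/- culture lay above every wild-type culture.

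Wnt5a was 52.1, 29.4 and 27.5 CPM in wild-type and 66, 89.5 and 84.8 CPM in RNF138-/- organoids. Its change of 1.09 ± 0.24 (adjusted p = 0.0113) went under a fold of 2 without wild-type replicate 2 (0.97) or 3 (0.92).

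Wnt6 fell from 387, 514 and 290 CPM in wild-type to 108, 97.2 and 136 CPM in RNF138-/- organoids (-1.85 ± 0.23, adjusted p = 0.00191). Wnt10a fell from 134, 195 and 118 CPM to 47.8, 40.3 and 58.9 CPM (-1.66 ± 0.22, 0.00233). In a fit of all 18 libraries the differences were -1.81 and -1.61 and missed the threshold (adjusted p = 0.0537 and 0.117). Even at this lower level the RNF138-/- cultures held more Wnt6 than any CAC tissue library. Wnt10a in those cultures overlapped with RNF138-/- CAC tissue.

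Wnt4, a ligand of kidney and reproductive tract development that is also made in gut stroma, measured 14.6, 16.8 and 7.29 CPM in wild-type and 5.99, 4.8 and 5.72 CPM in RNF138-/- organoids (-1.28 ± 0.31, adjusted p = 0.016). Wnt2 measured 5.95, 5.33 and 5.15 CPM against 1.74, 3.22 and 2.75 CPM (-1.13 ± 0.27, 0.0161). Wnt4 missed the threshold without wild-type replicate 2 or RNF138-/- replicate 2 or 3 (adjusted p = 0.0536 to 0.0677), and Wnt2 without RNF138-/- replicate 1 or 3 (0.0539 to 0.0554) and in the fit of all 18 libraries (0.0918). Wnt9a was level, at 17.2 ± 3.12 and 17.1 ± 0.692 CPM (log2 fold change -0.06 ± 0.16). Wnt3 was not called by edgeR, at -1.89 ± 0.69 (adjusted p = 0.0625) with overlapping groups, but passed by DESeq2 (-1.86, 0.0334), with no filter on low counts (-1.87, 0.0113) and without wild-type replicate 1 (-2.30, 0.0125).

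In organoids, where 15.0% of all genes were called between the genotypes, markers of several cell types differed too. Of 8 fibroblast markers 6 were called higher in RNF138-/- cultures and 0 lower by edgeR (0 at an unadjusted p under 0.05 and 0 by DESeq2), and their sums were 9074, 9895 and 23327 CPM in wild-type and 40663 to 50209 CPM in RNF138-/- cultures. Of 5 markers of trophocytes, stromal cells that feed the crypt base, 3 were called higher, among them Grem1 (2.67 ± 0.27). Of 6 myeloid markers 4 were called higher, with sums of 22.6 to 32.4 and 101 to 153 CPM. Of 8 smooth muscle markers 3 were called higher (median 1.17), with sums of 269 to 1368 and 1611 to 1802 CPM. Of 5 telocyte markers 3 were called lower, and the sums overlapped. Of 9 intestinal epithelium markers 2 were called lower, with sums of 9404 to 10405 CPM in wild-type and 5490 to 8024 CPM in RNF138-/- cultures, and of 5 blood endothelium markers tested 2 were called lower. None of the 8 fibroblast and 6 myeloid markers was at 0 in either group. The part of these cells in the differences of the ligands was not tested.

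**Figure D4:**
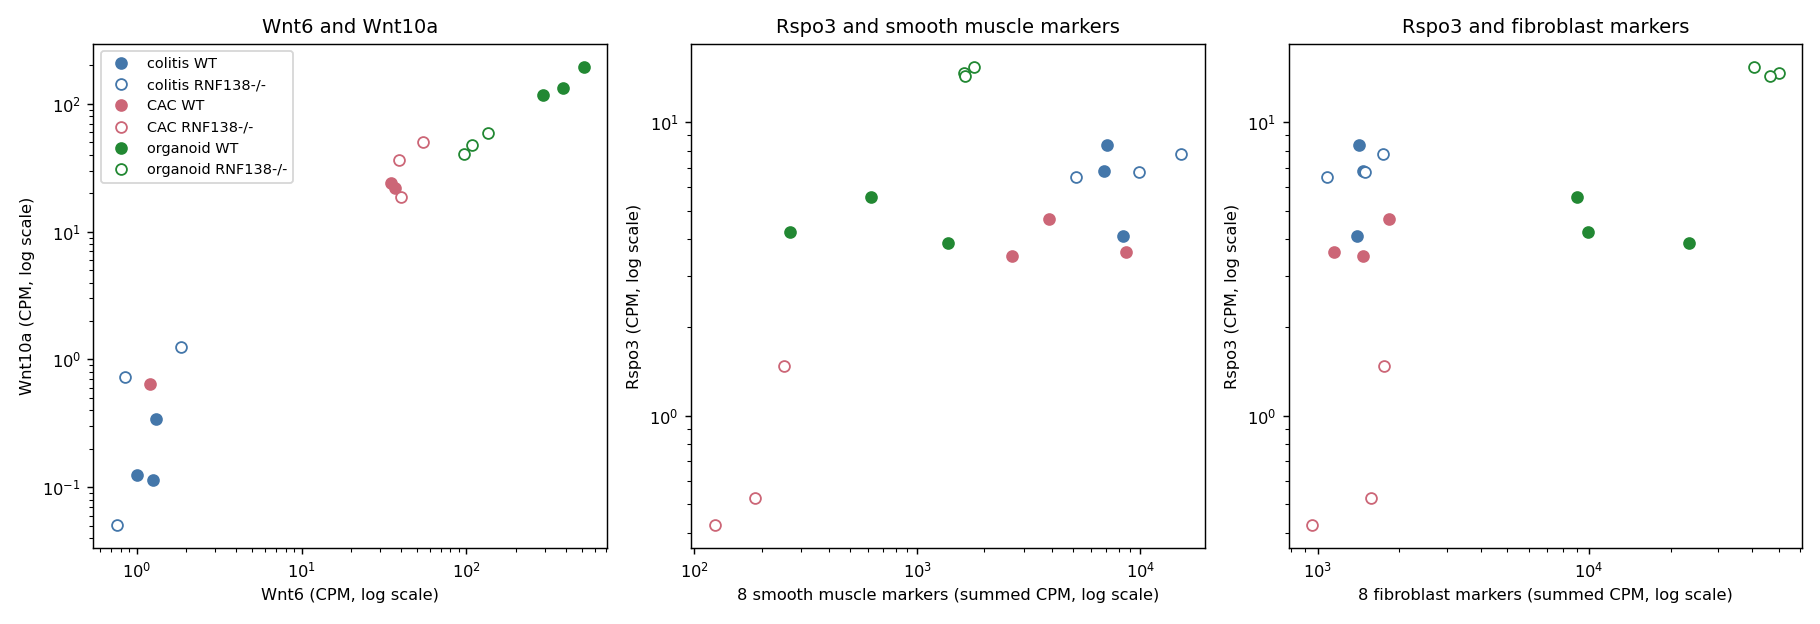
Each point is a library, on log axes of CPM, with colours for the models, filled points for wild type and open points for RNF138-/-. Both Wnt6 and Wnt10a are lowest in colitis and highest in wild-type organoids, while within a group the order of libraries can differ between them. Rspo3 is lowest in the 3 RNF138-/- CAC libraries, which have the fewest smooth muscle marker counts, and highest in the 3 RNF138-/- organoid libraries, which have the most fibroblast marker counts.

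Organoids were also set against the CAC tissue of the same genotype. In wild type 6 members were called, where 44.3% of all genes were. Higher were Wnt9a (4.40 ± 0.39), Wnt6 (4.06 ± 0.68), Wnt2 (3.86 ± 0.51), Wnt10a (3.28 ± 0.73) and Wnt4 (1.35 ± 0.35), and lower was Wnt2b (-1.64 ± 0.47). Rspo1, Rspo3, Wnt3 and Wnt5a were not called. Without wild-type CAC replicate 3 the count was again 6, with Wnt6 at 3.51 and Wnt10a at 2.73. In the same comparison all 4 Y-linked genes were called lower (median -12.79). Fibroblast (6 of 8), telocyte (3 of 5) and trophocyte markers (2 of 5) were called higher, with 1 fibroblast and 1 telocyte marker lower. Called lower were 7 of 8 smooth muscle, 6 of 8 neuron and glia, 5 of 5 T cell and 5 of 6 myeloid markers. So were 5 of 5 B and plasma cell, 4 of 6 blood endothelium and 4 of 4 tested fat markers. Also lower were 4 of 9 intestinal epithelium markers, with 1 higher, and 4 of 6 lymphatic endothelium markers, with 2 higher. Of 4 skeletal muscle markers tested 3 were called higher and 1 lower. Of 5 mesothelium markers 2 were called each way, and of 9 squamous markers tested 1 each way. The part of these cells was not tested.

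In RNF138-/- libraries 6 members were called too, where 44.4% of all genes were. Higher were Rspo1 (6.76 ± 0.81), Wnt9a (4.24 ± 0.38), Rspo3 (4.17 ± 0.40), Wnt2 (4.00 ± 0.55) and Wnt2b (2.81 ± 0.45), and lower was Wnt3 (-3.14 ± 0.75). In the same comparison 7 of 8 fibroblast, 6 of 8 smooth muscle, 3 of 5 trophocyte and 2 of 4 tested skeletal muscle markers were called higher. Called lower were 5 of 6 myeloid, 5 of 6 blood endothelium, 5 of 5 B and plasma cell and 5 of 5 T cell markers. Of 5 telocyte markers 2 were lower and 1 higher, and of 6 lymphatic endothelium markers 4 lower and 1 higher. Of 5 mesothelium markers 2 were higher and 1 lower. Lower too were 1 of 9 intestinal epithelium and 1 of 8 neuron and glia markers, and 1 fat and 1 squamous marker were higher. The part of these cells was not tested. Wnt6 was at 1.35 ± 0.61 (adjusted p = 0.0656) with groups that did not overlap, and Wnt10a at 0.48 ± 0.67. Wnt6 passed by DESeq2 (1.38, adjusted p = 0.0481), with no filter on low counts (1.35, 0.0189) and in a fit of only these groups (1.39, 2.79e-04). Wnt9a, a ligand known from joint and liver development, and Wnt2, a partner of Wnt2b in lung development, were thus higher in organoids than in CAC tissue of both genotypes. Wnt9a ran from 0.37 to 1.26 CPM in CAC tissue and from 13.9 to 20.1 CPM in organoids.

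**Figure D5:**
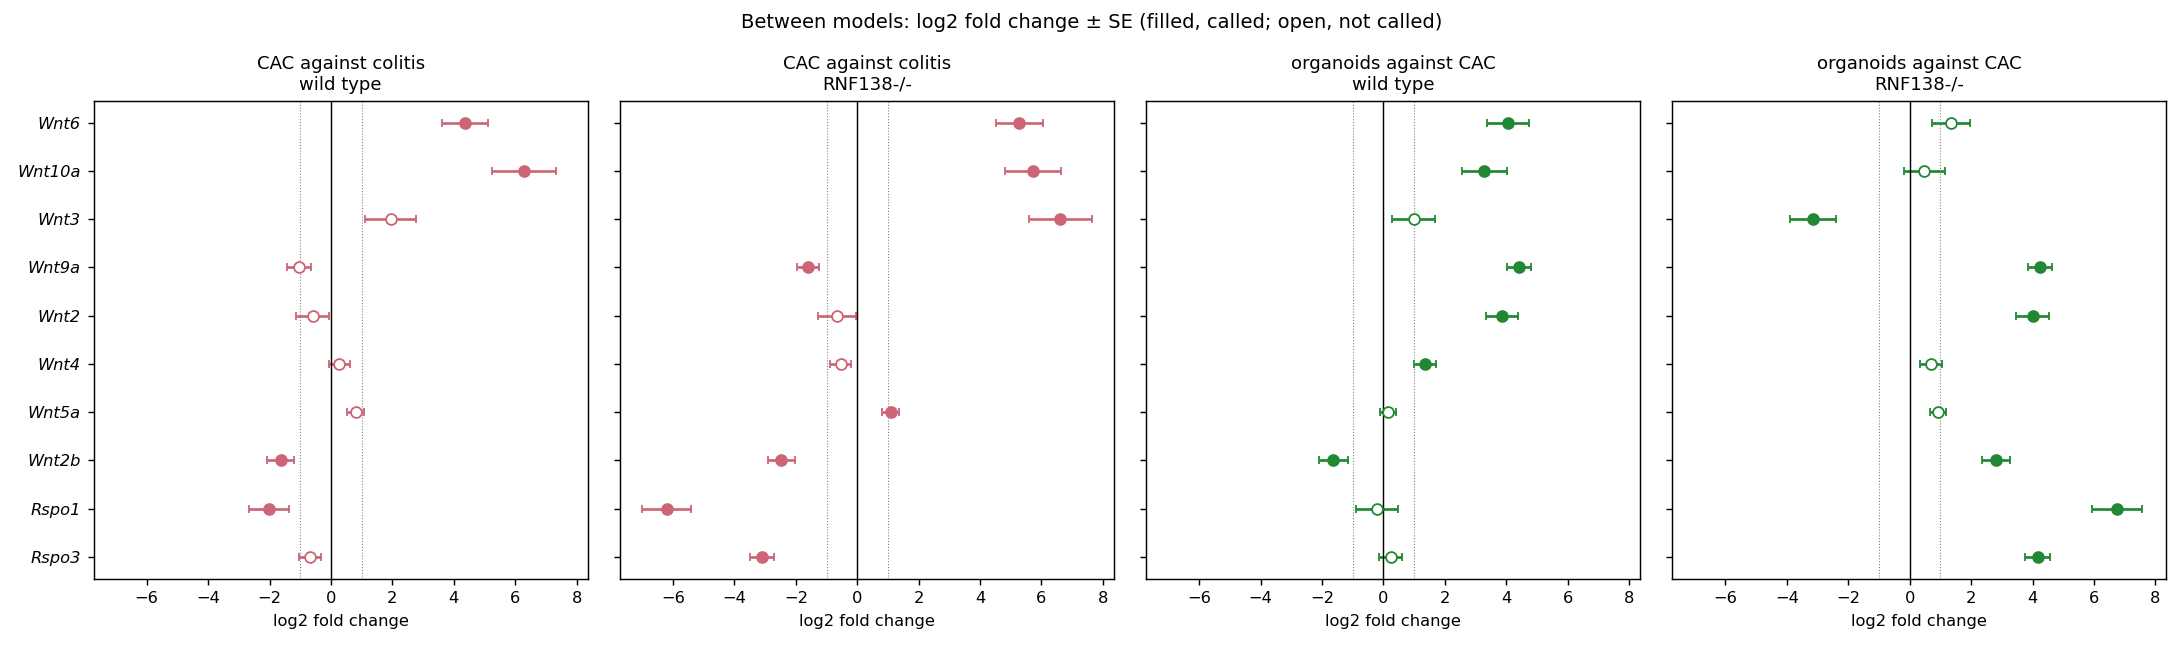
Log2 fold change ± SE of each gene between models, CAC against colitis and organoids against CAC, within each genotype, from 1 fit of all 18 libraries, with filled points for called genes and dotted lines at a fold of 2. Wnt6 and Wnt10a lie far to the right for CAC against colitis in both genotypes, and Rspo1 and Rspo3 lie to the left there and to the right for organoids against CAC in RNF138-/- libraries.

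Whether the genotype difference itself changed between models was tested with an interaction term. From colitis to CAC 3 of 10 members were called, where 11.9% of all genes were: Rspo1 (-4.17 ± 1.02, adjusted p = 0.0144), Rspo3 (-2.40 ± 0.52, 0.00809) and Wnt3 (4.68 ± 1.43, 0.0398). That of Wnt3 rests on 2 counts in RNF138-/- colitis. It missed the threshold without replicate 1 or 2 of either colitis group or of RNF138-/- CAC, or replicate 1 or 3 of wild-type CAC (3.33 to 4.96, adjusted p = 0.0528 to 0.239), and in a fit of only these groups (4.69, 0.054). From CAC to organoids 6 were called, where 18.9% were. Without wild-type CAC replicate 3 the counts were 2 and 6. Rspo1 (6.97 ± 1.05), Wnt2b (4.45 ± 0.65) and Rspo3 (3.93 ± 0.52) were higher relative to wild type in organoids than in CAC, and Wnt3 (-4.12 ± 1.03), Wnt10a (-2.79 ± 0.97) and Wnt6 (-2.71 ± 0.86) were lower. Those of Wnt6 and Wnt10a were lost without any single RNF138-/- organoid library, without RNF138-/- CAC replicate 2 or 3, and in a fit of only these groups (adjusted p = 0.0649 and 0.0637), and that of Wnt10a also without any wild-type organoid library and by DESeq2 (0.0981). Wnt6 was lost without wild-type organoid replicate 2 as well (0.0788). Both interactions use the CAC libraries, where Rspo1 had counts of only 2, 0 and 6 in RNF138-/- tissue. In that from colitis to CAC 8 of 8 smooth muscle, 7 of 8 neuron and glia, 5 of 5 B and plasma cell and 4 of 4 tested fat markers were called lower. In that from CAC to organoids all 4 Y-linked genes (median 12.94) and all 8 smooth muscle markers (median 6.46) were called higher, as were 5 of 8 fibroblast (median 2.17), 3 of 5 trophocyte (2.51) and 4 of 6 myeloid markers (3.84), while 3 of 5 telocyte markers were lower, and the difference between models cannot be told apart from sex.

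The other genes of the pathway were described from lists. Among the other 12 Wnt and R-spondin genes, Wnt11 and Wnt7b were far higher in organoids than in CAC, by 5.18 ± 0.36 and 5.19 ± 0.68 in wild type and by 6.29 ± 0.38 and 3.26 ± 0.60 in RNF138-/-. Without wild-type CAC replicate 3 the wild-type values were 5.47 for Wnt11, 4.76 for Wnt7b and 1.04 for Porcn, which adds the lipid to Wnt ligands. In RNF138-/- organoids Wnt10b (-1.44 ± 0.36) and Rspo4 (-1.84 ± 0.49) were lower than in wild type, where 15.0% of all genes were called. Of the 6 tested 0 were called higher by edgeR (0 at an unadjusted p under 0.05 and 0 by DESeq2). Of the secretion genes, Wls was higher in CAC than in colitis in RNF138-/- tissue (1.31 ± 0.21) and Porcn higher in organoids than in CAC in both genotypes (1.15 ± 0.25 and 1.25 ± 0.25).

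Of 20 receptors and membrane regulators, 2 of the 3 R-spondin receptors were called in CAC against colitis. Lgr5, which marks crypt stem cells, was higher in CAC than in colitis by 3.22 ± 0.60 in wild-type and 5.55 ± 0.64 in RNF138-/- tissue, and Lgr6 by 6.81 ± 1.12 and 7.92 ± 1.17. Without wild-type CAC replicate 3 the wild-type values were 3.69 for Lgr5 and 7.38 for Lgr6. Lgr4 was not called, at 0.005 ± 0.23 and 0.58 ± 0.23. Over the list 4 were called higher and 4 lower in wild type, where 13.6% of all genes were called (5 and 5 without that library), and 7 and 5 in RNF138-/-, where 37.1% were. Between genotypes in organoids, where 15.0% of all genes were called, 1 was called higher and 5 lower, among them Fzd10 (-1.64 ± 0.25) and Znrf3 (-1.12 ± 0.14). With no fold required and an unadjusted p under 0.05, 9 receptors were on the higher side and 6 on the lower, and the median over the list was 0.36.

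Of 12 secreted antagonists 9 were tested in CAC against colitis. In wild type 3 were called higher and 1 lower, where 13.6% of all genes were called, and in RNF138-/- 3 each way, where 37.1% were. Notum, which strips the lipid from Wnt ligands, and Wif1, which binds them, were higher in CAC than in colitis by 7.21 ± 0.97 and 7.05 ± 0.81 in wild type and by 9.05 ± 1.04 and 7.45 ± 0.80 in RNF138-/-. Without wild-type CAC replicate 3 the wild-type values were 7.77 and 7.57. Both were lower in RNF138-/- than in wild-type organoids, with log2 fold changes of -2.33 ± 0.16 and -2.19 ± 0.18. Sfrp1, a decoy receptor, was higher there (3.01 ± 0.49), at 3860 ± 930 against 466 ± 328 CPM.

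The last list held 19 target genes, among them Notum, Lgr5 and Znrf3 of the lists above. In CAC against colitis 10 were called higher and 0 lower in wild type (1 lower at an unadjusted p under 0.05, 0 by DESeq2, and 11 higher and 0 lower without replicate 3), and 17 higher and 0 lower in RNF138-/- (0 and 0), with median log2 fold changes of 1.69 and 3.16, where 13.6% and 37.1% of all genes were called. Between genotypes in CAC 0 were called by edgeR, although the median was 1.45, 11 were higher at an unadjusted p under 0.05 and 8 by DESeq2, and without wild-type replicate 3 edgeR called 7 higher. In organoids 11 were called lower in RNF138-/- cultures, where 15.0% of all genes were called, with a median of -1.12, among them Nkd1 (-1.95 ± 0.20), Lef1 (-1.74 ± 0.17) and Axin2 (-1.53 ± 0.17), and 0 were called higher (2 at an unadjusted p under 0.05, 0 by DESeq2). Axin2 stood at 568 ± 84.2 CPM in wild-type and 203 ± 30.5 CPM in RNF138-/- organoids, and at 122 ± 88.5 and 408 ± 9.89 CPM in CAC tissue. Wnt6 and Wnt10a were likewise lower in RNF138-/- than in wild-type organoids, whereas both R-spondins and Wnt2b were higher.

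Across the 6 groups the order of levels was firm in only some members. Wnt6 was highest in wild-type organoids, then RNF138-/- organoids, then RNF138-/- CAC, then wild-type CAC, with no overlap between these neighbours, and wild-type CAC overlapped with colitis through replicate 3. Wnt2 and Wnt4 were highest in wild-type organoids, and Wnt5a and Rspo3 in RNF138-/- organoids, each clear of the next group. Wnt2b and Rspo1 were also highest in RNF138-/- organoids by their means, but overlapped with RNF138-/- colitis, and Wnt2b with wild-type colitis too. Wnt3 was highest in RNF138-/- CAC, and every neighbour in its order overlapped. Wnt9a did not differ between the organoid groups beyond their spread, and both were clear of all tissue.

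Strand use in counting is not given in the sources used here. Antisense Gm29539 overlaps Wnt6 and had at most 46 counts in a library where Wnt6 had 13 to 6766, and Gm2670 overlaps Wnt5a with at most 14 counts against 246 to 1697. Gm12930, which overlaps Rspo1, had at most 2 counts in a library. Of the 50-base stretches of Wnt4, 3.85% occurred elsewhere in annotated exons, the largest share among the members.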

How the data were processed

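RNA was sequenced from colon of mice with DSS colitis or AOM/DSS cancer and from tumour organoids, in 18 libraries, 3 for each genotype and model. The authors deposited whole-number read counts per gene, and the submitters' processing notes name mm10, STAR 2.6.1d, HTSeq 0.11.2 and DESeq2. A second table holds the authors' own fold changes and p-values and was not used. The labels do not say whether replicates were separate animals or cultures, so p-values measure only the spread between these libraries, which may be technical. No pair of replicates agreed within sampling noise.

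Counts were normalised with TMM and tested with edgeR 4.0.16 (glmQLFit and glmQLFTest after filterByExpr, R 4.3.3) with Benjamini-Hochberg adjustment over all genes tested. Genotypes were compared in a separate fit for each model, and models and interactions in 1 fit of all 18 libraries. Alternatives were DESeq2 1.42.0, its size factors, no filter on low counts, the replicate number as a block, a Y-linked covariate, other sets of libraries and leaving out each library. Leaving out CAC wild-type replicate 3 for the pathway and marker lists and named pathway genes was added after seeing the data. The procedure was tested on simulated data. Lengths and positions came from GENCODE M21, to which 99.84% of 36757 genes matched. Intervals cover counting error only.

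The members and lists were chosen with earlier results of these data known. All 10 members are named. From each pathway list up to 3 called genes of largest fold with a mean of at least 1 CPM were named in each comparison, of which the text gives a part, and for each member with a mean of at least 1 CPM in tissue the 2 genes of smallest root mean square difference among genes with an SD within a factor of 2. Grem1, Krtdap, Krt6a and Axin2 in organoids were named after their values were seen.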

Additional observations from a re-analysis of the deposited data

Results flagged for a closer look

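In 9 cases a genotype difference changed between models by the interaction test of edgeR. Between colitis and CAC these were Wnt3 (log2 difference of differences 4.68, adjusted p = 0.0398), Rspo1 (-4.17, 0.0144) and Rspo3 (-2.40, 0.00809). Between CAC and organoids they were Rspo1 (6.97, 4.23e-04), Wnt2b (4.45, 3.28e-04), Rspo3 (3.93, 2.08e-04), Wnt3 (-4.12, 0.00965), Wnt10a (-2.79, 0.0467) and Wnt6 (-2.71, 0.0331). Over all genes 11.9% were called in the first of these interactions and 18.9% in the second. The call of Wnt3 between colitis and CAC was lost in 9 of 17 alternatives. Those of Wnt10a and Wnt6 between CAC and organoids were lost in 10 and 7 of 17. The RNF138-/- CAC libraries used in all 9 cases held 123 to 253 CPM of smooth muscle markers against 2657 to 8620 CPM in wild-type CAC, and the part of this difference was not tested. In the 6 between CAC and organoids only the wild-type organoids had Y-linked genes at 0, so that the change between models cannot be told apart from sex.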

How the results depend on the processing

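Of 1077 recomputed log2 fold changes 978 kept their direction and side of the threshold, 53 lost the threshold, 16 gained it and 30 changed sign, 0 of them called. The number of members called for genotype in CAC, 1 in the separate fit, was 2 with no filter on low counts, 3 by DESeq2, 3 in the fit of all 18 libraries, 0 with the Y-linked covariate and 0 to 1 when a library was left out. For genotype in organoids, 8 in the separate fit, it was 5 in the fit of all 18 libraries, 9 by DESeq2 and with no filter on low counts and 6 to 9 when a library was left out, and for CAC against colitis in wild type 2 to 4 when a library was left out. Wnt9a in CAC was at -0.21 with the Y-linked covariate. Sign changes on leaving out a library gave ranges, for genotype in colitis, of -0.32 to 0.60 for Wnt2b, -0.08 to 0.19 for Wnt5a, -0.53 to 0.19 for Wnt6 and -0.10 to 0.39 for Rspo3. For Wnt9a they were -0.21 to 0.38 in CAC and -0.20 to 0.07 in organoids. For CAC against colitis in wild type Wnt2 ran from -1.01 to 0.02, and for organoids against CAC in wild type Wnt5a ran from -0.20 to 0.37 and Rspo1 from -0.57 to 0.29. In the interactions Wnt2 ran from -0.75 to 0.29 and Wnt10a from -1.26 to 0.27 between colitis and CAC, and Wnt2 from -0.23 to 0.66 and Wnt9a from -0.43 to 0.18 between CAC and organoids. Causes were not tested. With the replicate block Rspo3 lost its call in CAC (-2.48, adjusted p = 0.0547), Wnt3 gained one (2.30, 0.0274) and Rspo1 lost that for CAC against colitis in wild type (-1.96, 0.0532), and no other call of a member changed. The numbers do not pair the samples, with correlations of 0.07 to 0.45 in colitis, 0.03 to 0.19 in CAC and -0.15 to 0.04 in organoids. Scaling by total count moved the median of all genes by -0.62 for organoids against CAC in RNF138-/-, 0.31 for CAC against colitis in RNF138-/-, 0.24 for genotype in CAC and -0.22 in organoids. Members with under 10 counts in a library are limited by depth. Over all genes, the calls for genotype in colitis, 15 in number, were 354 with no filter on low counts, 343 by DESeq2, 176 with the Y-linked covariate, 89 with the replicate block and 0 to 147 on leaving out a library. For genotype in CAC, with 954, they were 1641, 2464 and 0 under the first 3 of these, 2834 in the fit of all 18 libraries and as few as 0 without RNF138-/- replicate 1 or 2. For CAC against colitis in wild type, with 2636, they were 1689 in a fit of only these groups.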
